A study of Arabidopsis thaliana with 9 samples.

Results

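RALF-like genes (RALFL) encode small secreted signalling peptides, and 8 probe sets of this family are described here across 9 Affymetrix arrays from Arabidopsis thaliana inflorescences. Members were chosen by annotation and by their measured ratios, as probe sets annotated with a single gene whose symbol begins with RALFL and with a deposited ratio above the 40th percentile of its array on at least 3 of the 9 arrays. Of 22746 probe sets on the array, 11 carry the name of a RALFL gene alone, and 8 of these passed the filter, among 17273 that passed in all. RALFL25, RALFL26, RALFL22, RALFL24, RALFL31, RALFL32, RALFL33 and RALFL34 passed, while RALFL18, RALFL27 and RALFL28 did not. A current gene table holds 32 RALFL genes, so most of the family has no probe set named for it here. The filter chose members by their measured level, and a gene that is high in 1 group alone can pass through that group.

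RALF peptides are named for the rapid alkalinization of the medium that they cause when added to plant cells. They are released from precursor proteins, in some members through cleavage by the site-1 protease S1P, and bind receptor kinases of the FERONIA family together with LORELEI-like membrane-anchored proteins and leucine-rich repeat extensins of the cell wall. Through these partners they adjust cell wall expansion, and in flowers members of the family act in the growth and integrity of pollen tubes and in the exchange of signals between pollen and pistil.

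The plants were all ga1-3 rga rgl2 mutants, in which gibberellin synthesis is blocked and the DELLA growth repressors RGA and RGL2 are lost. RGA-GR Dex was a transgenic line with RGA fused to the glucocorticoid receptor (GR) and treated with dexamethasone (Dex), a steroid that activates the fusion. RGA-GR mock was the same line under mock treatment, and nontransgenic Dex was the mutant without the transgene under Dex. Each group had 3 arrays of samples taken at 4 h, which the submitters describe as independent biological sets, and older flowers were left out of the inflorescences. The promoter of the fusion, the number of transgenic lines and the Dex dose are not given in the sources used here. RGA-GR Dex and RGA-GR mock differ in Dex as well as in RGA activity, RGA-GR Dex and nontransgenic Dex differ in the transgene, and RGA-GR mock and nontransgenic Dex differ in both, so these cannot be told apart within a single comparison.

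Each deposited value is a ratio, whose denominator is usually the median of that probe set across arrays, so ratios can be set against each other between arrays but not between genes. The median of RALFL25 is 0.984 and not 1, and what it was divided by is not stated. Poly-A spike-in controls were low on replicates 1 and 2 of both transgenic groups, with a median log2 ratio between -3.73 and -3.23 over 24 control probe sets, against 0.00 to 1.25 on the other arrays. The labels name no such batch. All 3 nontransgenic Dex arrays had the spike-in signal, so differences of the members and of the marker lists from that group are also given on the arrays with the signal. There each transgenic group holds 1 array, which is assumed to vary like the others. A control for 25S ribosomal RNA also differed, at log2 ratios of 3.29, 4.71 and 2.93 in RGA-GR Dex, 0.00, 4.15 and -1.01 in RGA-GR mock and -3.58, -4.02 and -4.12 in nontransgenic Dex. The part of either in the results was not tested. Precision is limited by having 3 arrays in each group. A p-value here sets a difference of means against the spread between arrays within the groups. In whole inflorescences, fewer cells of a type and less RNA per cell cannot be told apart.

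RALFL25 (AT3G25165) had deposited ratios of 0.742, 0.104 and 0.234 on the RGA-GR Dex arrays (replicates 1 to 3), 1.318, 0.450 and 0.984 on the RGA-GR mock arrays, and 2.387, 3.249 and 2.747 on the nontransgenic Dex arrays. All nontransgenic Dex arrays were higher than every array of the transgenic line, while the RGA-GR Dex and RGA-GR mock arrays overlapped. On the log2 scale it averaged -1.93 ± 1.42 in RGA-GR Dex, -0.26 ± 0.80 in RGA-GR mock and 1.47 ± 0.22 in nontransgenic Dex (SD, n = 3 each). It passed the filter on all nontransgenic Dex arrays and on RGA-GR mock replicates 1 and 3, and on none of the RGA-GR Dex arrays. Without nontransgenic Dex it would not reach 3 arrays, so its lower values in the transgenic line are in part built into its choice. RALFL25 is a gene known to be transcribed in pollen.

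RALFL26 (AT3G25170), another family gene known from pollen, had ratios of 1.563, 0.0329 and 0.01 in RGA-GR Dex, 1.881, 0.346 and 0.336 in RGA-GR mock, and 1.83, 1.98 and 1 in nontransgenic Dex. The value of 0.01 is the lowest that the table holds, shared by 123 values, so the true ratio there may be lower. Replicate 1 of both transgenic groups lay within the nontransgenic Dex range, whereas replicates 2 and 3 of both were below it. RALFL26 passed the filter on these replicate 1 arrays and on all nontransgenic Dex arrays. Its choice thus also rests on nontransgenic Dex, and its lower values in the transgenic line are in part built in. Its group means on the log2 scale were -3.64 ± 3.81, -0.73 ± 1.42 and 0.62 ± 0.54 for RGA-GR Dex, RGA-GR mock and nontransgenic Dex (SD, n = 3 each). The spread within groups, a pooled SD of 2.37, was larger than that of 99.95% of the probe sets that passed the filter, and that of RALFL25 was 0.95, larger than 89.4%. For the other 6 members the pooled SD lay between 0.22 and 0.41, around the median of 0.33 over all probe sets.

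RALFL25 and RALFL26 are neighbours in the gene table, with 1 gene between them, which codes for no protein. The nearest measured genes on the RALFL25 side, AT3G25160 and AT3G25150, differed by -0.43 (adjusted p = 0.287) and 0.13 (adjusted p = 0.644) on the log2 scale between RGA-GR Dex and nontransgenic Dex, and neither passed the test. The probe sets are annotated with 1 gene each, and whether transcripts of close relatives also bind to them was not tested.

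The other 6 members varied far less. RALFL22 (AT3G05490), whose peptide is known as a ligand of FERONIA, had ratios of 0.992, 0.494 and 0.818 in RGA-GR Dex, 1.132, 0.920 and 1.124 in RGA-GR mock, and 1.014, 1 and 1.032 in nontransgenic Dex. Every RGA-GR Dex array was below the nontransgenic Dex arrays, and replicate 1 lay above a single RGA-GR mock array. RALFL33 (AT4G15800), also known as a FERONIA ligand, had 1.230, 0.815 and 0.898 in RGA-GR Dex, 1, 1.333 and 1.757 in RGA-GR mock, and 0.903, 1.070 and 0.747 in nontransgenic Dex. It was the member with its highest value in RGA-GR mock replicate 3 and its lowest in a nontransgenic Dex array, and its groups overlapped. RALFL34 (AT5G67070), whose peptide is known as a ligand of THESEUS1 in lateral root formation, had 1, 0.814 and 1.044 in RGA-GR Dex, 0.963, 0.997 and 1.095 in RGA-GR mock, and 1.232, 0.961 and 1.469 in nontransgenic Dex. All 3 groups overlapped.

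RALFL24 (AT3G23805) had ratios of 1, 0.472 and 0.733 in RGA-GR Dex, 0.737, 1.002 and 1.058 in RGA-GR mock, and 1.341, 0.837 and 1.282 in nontransgenic Dex. RALFL31 (AT4G13950) had 0.930, 0.733 and 0.959 in RGA-GR Dex, 0.675, 1 and 1.115 in RGA-GR mock, and 1.236, 1.058 and 1 in nontransgenic Dex. RALFL32 (AT4G14010) had 1, 0.698 and 0.962 in RGA-GR Dex, 1.116, 0.982 and 1.149 in RGA-GR mock, and 1.059, 0.992 and 1.831 in nontransgenic Dex. Of these 3 genes, RALFL31 alone had RGA-GR Dex arrays that were all below the nontransgenic Dex arrays, and the single high value of RALFL32 was on nontransgenic Dex replicate 3.

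RGA-GR Dex replicate 2 was the lowest array for 5 of the 8 members (RALFL22, RALFL24, RALFL25, RALFL32 and RALFL34), as it was for 11.9% of all probe sets that passed. An RGA-GR Dex array was the lowest for 6 of 8 members, against 27.9% of all probe sets, and a nontransgenic Dex array was the highest for 6 of 8, against 29.5%. RALFL26 was lowest on RGA-GR Dex replicate 3, RALFL31 on RGA-GR mock replicate 1 and RALFL33 on nontransgenic Dex replicate 3. Members share their arrays, so these shares describe the arrays as much as the genes.

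**Figure D1:**
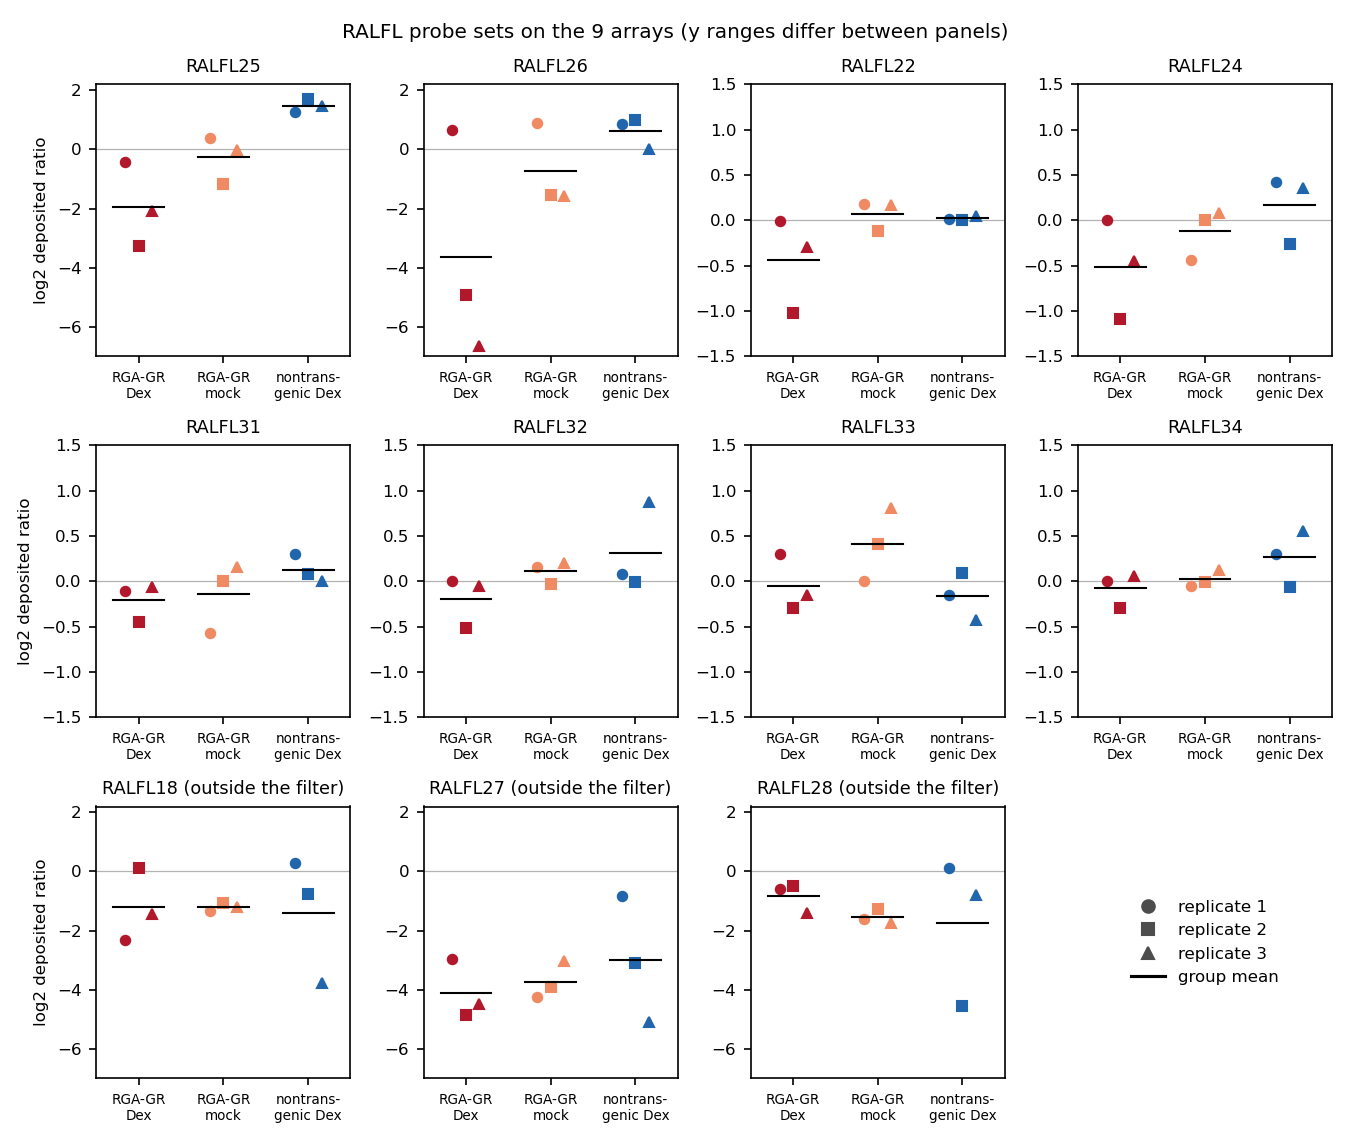
Log2 deposited ratio (y axis) of the 11 RALFL probe sets on each array, by group (x axis), with the replicate number as the marker shape and a bar at the group mean; the y range differs between panels. RALFL25 is highest on the 3 nontransgenic Dex arrays, RALFL26 is lowest on RGA-GR Dex replicates 2 and 3, and the other 6 members that passed the filter lie between -1.08 and 0.87.

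Just outside the filter was RALFL18 (AT2G33130), above the 40th percentile on 2 arrays, with ratios of 0.201, 1.079 and 0.371 in RGA-GR Dex, 0.399, 0.483 and 0.438 in RGA-GR mock, and 1.214, 0.591 and 0.0738 in nontransgenic Dex. RALFL28 (AT4G11510) was above it on 1 array and RALFL27 (AT3G29780) on 0. Just inside it were RALFL25 and RALFL26, on 5 arrays each. The ratios of RALFL28 spanned 0.0428 to 1.083 and those of RALFL27 0.0291 to 0.567, in each case with both ends in nontransgenic Dex, and the groups of all 3 genes overlapped. Fitted with no filter, their differences ranged from -1.11 to 0.92 with standard errors of 1.04 to 1.09, and the lowest adjusted p was 0.526.

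The comparison of RGA-GR Dex with RGA-GR mock asks how the genes stand after activation of RGA in the same line. RALFL25 was 3.19-fold lower in RGA-GR Dex, a log2 difference of -1.67 ± 0.63 (moderated SE from limma, n = 3 each), and lower in all 3 pairs of the same replicate number, by -0.83, -2.11 and -2.07. Its unadjusted p was 0.0239 and its adjusted p, over all probe sets tested, was 0.538, so it did not pass the threshold of 0.05. Leaving out single arrays put the difference between -2.42 (without RGA-GR Dex replicate 1) and -1.004 (without RGA-GR Dex replicate 2), and it passed in 0 of 25 alternatives, with adjusted p between 0.0611 and 0.962. RALFL26 differed by -2.91 ± 1.63 (adjusted p = 0.632) and by -0.27, -3.39 and -5.07 in the pairs, with the last on the lowest value of the table. It was -5.05 without RGA-GR Dex replicate 1 and -1.41 without RGA-GR Dex replicate 3. With an offset of 0.0894 added before the log2, which weighs low ratios less, this difference was -1.39. RALFL25 differed by -2.07 on the arrays with spike-in signal and by -1.47 on those without, and RALFL26 by -5.07 and -1.83.

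For the other 6 members the differences between RGA-GR Dex and RGA-GR mock were within 0.52, and their lowest adjusted p was 0.607. RALFL22 differed by -0.52 ± 0.26 and was lower in all 3 pairs, by -0.19, -0.90 and -0.46, but by -0.23 overall without RGA-GR Dex replicate 2. Leaving out that array also put RALFL24 at -0.11. RALFL32 was also lower in all 3 pairs, by -0.16, -0.49 and -0.26. RALFL33 (-0.46 ± 0.25), RALFL24 (-0.39 ± 0.32), RALFL34 (-0.10 ± 0.19) and RALFL31 (-0.07 ± 0.23) were higher in RGA-GR Dex in pair 1 and lower in pairs 2 and 3.

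All 8 members had lower means in RGA-GR Dex than in RGA-GR mock, as did 10 of the 11 RALFL probe sets, against 40.9% of the probe sets that passed the filter and 43.0% of all. The median of the 8 differences was -0.43, against 0.08 over all probe sets that passed. No member was called by limma with Benjamini-Hochberg adjustment, where 0% of all probe sets were called, and 1 member had an unadjusted p under 0.05, where 8.83% of all did. In 0 members did all RGA-GR Dex arrays lie below all RGA-GR mock arrays, which was so for 4.23% of all probe sets.

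Set against nontransgenic Dex, RGA-GR Dex had 10.6-fold lower RALFL25, a log2 difference of -3.40 ± 0.63 (adjusted p = 0.00674). No array of one group reached the range of the other, and only 0.787% of all probe sets had a more negative difference. The difference was -3.57 on the arrays with spike-in signal, which hold 1 RGA-GR Dex array, and -3.37 with the spike-in batch as a block, and RALFL25 was called in 24 of 24 alternative settings (adjusted p between 0.000656 and 0.0396). In all, 27.0% of probe sets were called in this comparison and 9.44% were called lower, so a call in itself is common here. RALFL25 needed the nontransgenic Dex arrays, where it is high, to pass the filter, so its calls are a description. The comparison shares its RGA-GR Dex arrays with the preceding one, and the values of the pair of comparisons are not independent.

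RALFL26 had the larger difference but also the larger spread, at -4.26 ± 1.63 between RGA-GR Dex and nontransgenic Dex (unadjusted p = 0.0254, adjusted p = 0.0772), and was not called. Single arrays decided that value: the difference was -6.40 (adjusted p = 0.00656) without RGA-GR Dex replicate 1 and -2.76 (adjusted p = 0.185) without RGA-GR Dex replicate 3. With the replicate number as a block within the transgenic line it stayed at -4.26 and the adjusted p was 0.0130. On the arrays with spike-in signal it was -7.26, which rests on a single RGA-GR Dex array at the lowest value of the table, and with the offset it was -2.58. It was called in 6 of 24 alternatives, that single array among them, and its adjusted p reached 0.223.

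Among the other members RALFL24 differed by -0.69 ± 0.32 (adjusted p = 0.136) between RGA-GR Dex and nontransgenic Dex, and by -0.94 (adjusted p = 0.0495, the lowest of 24 alternatives, which reached 0.392) without replicate 1 of both transgenic groups. RALFL32 differed by -0.51 ± 0.25 (adjusted p = 0.151), RALFL22 by -0.46 ± 0.26 (adjusted p = 0.218), RALFL34 by -0.34 ± 0.19 (adjusted p = 0.202) and RALFL31 by -0.33 ± 0.23 (adjusted p = 0.310). RALFL33 was the exception in sign, at 0.11 ± 0.25 (adjusted p = 0.777), and it turned to -0.09 when array medians were subtracted. That scaling placed the median difference of all probe sets at -0.05, against 0.14 as deposited, and RALFL25 at -3.59. On the arrays with spike-in signal these 6 members differed by between -0.62 (RALFL24) and 0.0016 (RALFL33), and none was called.

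In this comparison 7 of the 8 members, and 8 of the 11 RALFL probe sets, had lower means in RGA-GR Dex, against 42.7% of the probe sets that passed. The median of the 8 was -0.48, against 0.14 over all. In RALFL22, RALFL25 and RALFL31 all RGA-GR Dex arrays were below all nontransgenic Dex arrays, which was so for 17.6% of all probe sets. RALFL25 alone of the 8 was called.

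The comparison of RGA-GR mock with nontransgenic Dex shows how the line stood without activation of the fusion. RALFL25 was 3.32-fold lower in RGA-GR mock, at -1.73 ± 0.63 (unadjusted p = 0.0203, adjusted p = 0.0862), with all RGA-GR mock arrays below all nontransgenic Dex arrays. It did not pass in the fit over 9 arrays but did in 6 of 24 alternatives: with the replicate number as a block within the transgenic line (adjusted p = 0.00818), on the 6 arrays compared (adjusted p = 0.0368), on the arrays with spike-in signal (-1.49, adjusted p = 0.0301, with 1 RGA-GR mock array), and without RGA-GR Dex replicate 1, RGA-GR Dex replicate 2 or replicate 1 of both transgenic groups (adjusted p = 0.0334, 0.0474 and 0.0325). Its highest adjusted p over the alternatives was 0.257. For RALFL26 the difference was -1.35 ± 1.63 (adjusted p = 0.599), with -2.19 on the arrays with spike-in signal and -3.27 with that batch as a block, neither of which was called.

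Means were higher in RGA-GR mock for 2 members, RALFL33 by 0.57 ± 0.25 (unadjusted p = 0.0434, adjusted p = 0.138) and RALFL22 by 0.05 ± 0.26. The remaining members differed by -0.29 (RALFL24), -0.27 (RALFL31), -0.24 (RALFL34) and -0.20 (RALFL32). On the arrays with spike-in signal these 6 members differed by between -0.14 (RALFL34) and 0.97 (RALFL33), and none was called. RALFL22 turned to -0.09 when array medians were subtracted, which put the median difference of all probe sets at -0.07, against 0.07 as deposited.

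In RGA-GR mock 6 of 8 members, and 7 of 11 RALFL probe sets, had lower means than in nontransgenic Dex, against 45.6% of all that passed, and their median was -0.25 against 0.07. None was called by limma, where 15.3% of all probe sets were called and 6.19% were called lower. An unadjusted p under 0.05 was found for 2 members (RALFL25 and RALFL33), against 32.9% of all. RALFL25 alone had groups that did not overlap, with RGA-GR mock lower, against 16.6% of all probe sets.

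**Figure D2:**
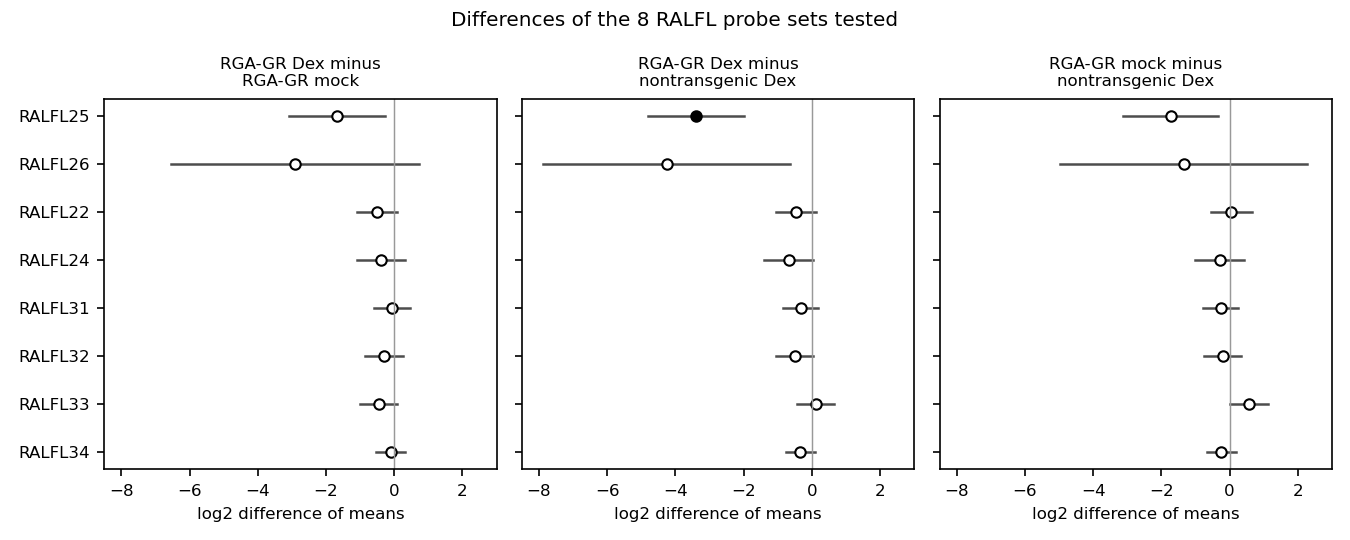
Log2 differences between group means (x axis) of the 8 RALFL probe sets (rows) in the 3 comparisons (panels), with 95% confidence intervals from limma as lines; a filled point passed an adjusted p of 0.05. RALFL25 in RGA-GR Dex minus nontransgenic Dex, at -3.40, is the filled point, and the intervals of RALFL26 are the widest.

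The genes whose values over the 9 arrays were most like those of RALFL25 were AT2G26450 (Pearson r = 0.989), AT3G18360 (r = 0.984), AT5G01870 (r = 0.981), AT3G61160 (r = 0.977) and AT1G30350 (r = 0.976), out of 9620 probe sets with 1 gene outside the family. These values are descriptions: the 9 arrays form 3 groups and share their scaling and the spike-in batch. AT3G18360 had ratios of 0.616, 0.104 and 0.118 in RGA-GR Dex, 1.533, 0.285 and 1 in RGA-GR mock, and 3.409, 3.721 and 3.145 in nontransgenic Dex. In each of the 5 genes RGA-GR Dex replicate 2 was the lowest array and the nontransgenic Dex arrays were all above those of the transgenic line. RALFL25 has the same pattern, and the 5 were chosen for their likeness to it, so this follows largely from their choice. RALFL26 followed RALFL25 with r = 0.849 and RALFL22 with r = 0.803, ahead of RALFL24 (0.728), RALFL32 (0.699), RALFL34 (0.630) and RALFL31 (0.473), and RALFL33 had r = 0.034.

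Of 36 pollen genes listed, 7 had a probe set named for them, and 6 of these fell in RGA-GR Dex relative to nontransgenic Dex, where 9.44% of all probe sets were called lower. The marker lists were chosen with earlier results of these data known, so counts over them are descriptions. Each of the 6 passed the filter on fewer than 3 transgenic arrays and needed the nontransgenic Dex arrays, where it is high. Their lower values in the transgenic line are thus in part built into their choice. ACT12 alone of the 7 passed on 3 transgenic arrays. The median difference over the 7 was -3.71, and -4.35 on the arrays with spike-in signal. The count was between 2 and 7 over 24 alternative settings, and was 2 without RGA-GR Dex replicate 2 or nontransgenic Dex replicate 1. In RGA-GR mock 3 of the 7 fell relative to nontransgenic Dex (MGH3, AT5G45880 and AT1G29140), where 6.19% of all probe sets were called lower, with a median of -2.15 and of -3.21 on the arrays with spike-in signal. That count was between 0 and 5 over the alternatives with more than 1 array in each group. It was 0 under quantile normalization and under eBayes without trend, both on all 9 arrays. It was also 0 when RGA-GR mock replicate 2 or 3 or any 1 of the nontransgenic Dex arrays was left out. With the replicate block within the transgenic line it was 5. Between RGA-GR Dex and RGA-GR mock all 7 had lower means, with a median of -1.43, none was called by limma, and AT5G45880 alone had an unadjusted p under 0.05. The summed ratio of the 7 markers ranged from 1.35 to 6.57 in RGA-GR Dex, 3.62 to 10.4 in RGA-GR mock and 21.9 to 28.3 in nontransgenic Dex.

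MGH3, a histone H3 gene of sperm cells, had ratios of 1, 0.589 and 0.330 in RGA-GR Dex, 1.337, 0.395 and 0.425 in RGA-GR mock, and 2.052, 2.456 and 1.838 in nontransgenic Dex. AT59, a pectate lyase gene of pollen, had 0.610, 0.0335 and 0.0756 in RGA-GR Dex, 0.796, 0.477 and 0.105 in RGA-GR mock, and 1.702, 1.501 and 1.353 in nontransgenic Dex. For both genes, and likewise for RALFL25 and RALFL26, replicate 1 was the highest array within each transgenic group. Every transgenic array was below the nontransgenic Dex arrays for both markers and RALFL25. ACT12, a late pollen actin gene, was the marker that was not called, at -1.97 ± 0.72 (adjusted p = 0.0670) in RGA-GR Dex against nontransgenic Dex. It departed from both patterns in RGA-GR mock, with ratios of 0.468, 1.189 and 1.273. There replicate 1 was the lowest array, and the values overlapped those of nontransgenic Dex (2.198, 1.222 and 1). The correlation of the 7 markers with RALFL25 lay between 0.776 (ACT12) and 0.968 (AT5G45880).

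The tapetum is the anther layer that feeds the pollen. Of 17 tapetum genes listed, 4 had a probe set named for them, with a median difference of -1.35 in RGA-GR Dex and -0.24 in RGA-GR mock, each against nontransgenic Dex, and of -1.89 and -0.46 on the arrays with spike-in signal. SHT, an acyltransferase gene of the tapetum, and ATA27, a further tapetal gene, fell in RGA-GR Dex relative to nontransgenic Dex, with log2 differences of -2.01 (adjusted p = 0.00395) and -1.15 (adjusted p = 0.0430). These are 2 of 4, where 9.44% of all probe sets were called lower. SHT passed the filter on replicate 1 of both transgenic groups and on the nontransgenic Dex arrays, where it is high. Its lower values in the transgenic line are thus in part built into its choice. The other tapetum genes were not called and overlapped between these groups. AT5G07230 was nearly level at -0.02 (adjusted p = 0.939), and AT1G75920 was at -1.55 (adjusted p = 0.107). The count in RGA-GR Dex was 1 in place of 2 on the 6 arrays compared and without any 1 of the nontransgenic Dex arrays. It was also 1 without RGA-GR Dex replicate 2 or 3 or RGA-GR mock replicate 2 or 3. Without RGA-GR Dex replicate 1, or with the replicate block within the transgenic line, it was 3. In RGA-GR mock SHT alone of the 4 was called, at -1.93 against nontransgenic Dex, and 0 were called without RGA-GR mock replicate 2. The summed ratio of the 4 was 2.22 to 4.15 in RGA-GR Dex, 3.20 to 3.93 in RGA-GR mock and 5.36 to 6.83 in nontransgenic Dex. The part of pollen or tapetum content in the values of RALFL25 and RALFL26 was not tested.

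**Figure D3:**
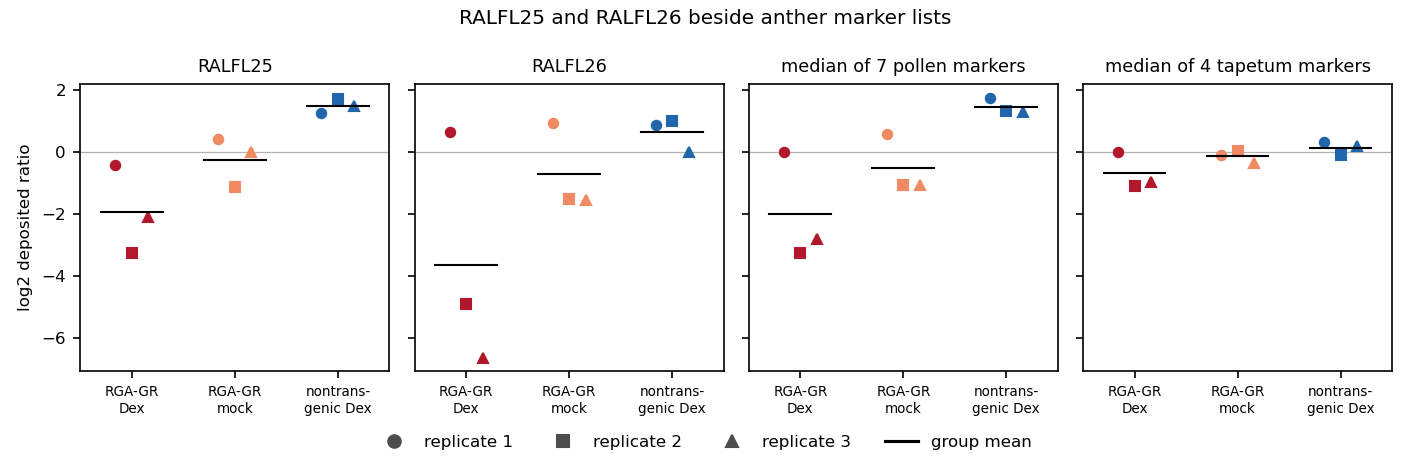
Log2 deposited ratio (y axis) by array and group (x axis) for RALFL25, RALFL26, the median of 7 pollen markers and the median of 4 tapetum markers; marker shapes give the replicate number and bars the group means. The pollen median is 0.00, -3.25 and -2.83 on the RGA-GR Dex arrays, 0.57, -1.07 and -1.06 on the RGA-GR mock arrays and 1.28 to 1.74 on the nontransgenic Dex arrays.

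Of 10 receptor kinase genes of the FERONIA family (CrRLK1L) listed, 7 had a probe set named for them and 4 passed the filter. FER (FERONIA), the best known RALF receptor, had ratios of 1.097, 1.372 and 1.271 in RGA-GR Dex, 1, 1.198 and 0.985 in RGA-GR mock, and 0.375, 0.376 and 0.495 in nontransgenic Dex. Every transgenic array was above every nontransgenic Dex array, opposite to RALFL25. Relative to nontransgenic Dex, FER was 3.02-fold higher in RGA-GR Dex (1.59 ± 0.27, adjusted p = 0.00551) and 2.57-fold higher in RGA-GR mock (1.36 ± 0.27, adjusted p = 0.0184). Between RGA-GR Dex and RGA-GR mock it differed by 0.23 ± 0.27 (adjusted p = 0.815). The call against nontransgenic Dex held in 24 of 24 alternatives for RGA-GR Dex and in 21 of 24 for RGA-GR mock. It was lost for RGA-GR mock on the arrays with spike-in signal and without RGA-GR mock replicate 2, with or without its Dex partner.

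THE1 (THESEUS1), the receptor known for RALF34, was 1.95-fold higher in RGA-GR mock than in nontransgenic Dex (0.96 ± 0.24, adjusted p = 0.0305), a call that held in 13 of 24 alternatives, with adjusted p between 0.0200 and 0.249. It was lost without nontransgenic Dex replicate 1 or 2, without RGA-GR mock replicate 1 or 2, and with array medians subtracted or the spike-in batch as a block, among others. In RGA-GR Dex it differed from nontransgenic Dex by 0.61 ± 0.24 (adjusted p = 0.0875). Its ratios were 0.983, 1 and 1.120 in RGA-GR Dex, 1.541, 1.247 and 1.199 in RGA-GR mock, and 0.524, 0.601 and 0.984 in nontransgenic Dex, and all RGA-GR Dex arrays lay below all RGA-GR mock arrays (-0.36 ± 0.24, adjusted p = 0.685). The other 2 that passed the filter, AT4G39110 and AT2G39360, were not called. For AT4G39110 every transgenic array was below the nontransgenic Dex arrays, the same direction as RALFL25. It differed from nontransgenic Dex by -1.91 ± 0.97 in RGA-GR Dex (adjusted p = 0.169) and -2.01 ± 0.97 in RGA-GR mock (adjusted p = 0.179). In RGA-GR Dex it was called lower without RGA-GR mock replicate 3, alone or with its Dex partner. ANX1 and ANX2, receptors that keep the pollen tube intact, and AT2G21480 did not pass the filter, with 1 array each above the 40th percentile. None of 4 LORELEI-like genes listed has a probe set named for it.

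Leucine-rich repeat extensins bind RALF peptides in the cell wall, some of them in pollen tubes. Of 11 listed, 8 had a probe set named for them, and all 8 passed the filter. AT3G19020 and AT4G33970 passed it through the nontransgenic Dex arrays alone, where they are high, so a lower value in the transgenic line is built into their choice. Of the other 6, 3 fell in RGA-GR Dex relative to nontransgenic Dex and 0 rose, where 27.0% of all probe sets were called and 9.44% were called lower. Of these 3, AT5G25550 passed the filter on 4 arrays, the nontransgenic Dex arrays and RGA-GR mock replicate 1. Its lower value is thus also built into its choice in part, and its call is a description. AT5G25550 had ratios of 0.731, 0.101 and 0.142 in RGA-GR Dex, 1.090, 0.421 and 0.665 in RGA-GR mock, and 6.248, 5.835 and 4.414 in nontransgenic Dex. Its groups followed the order of RALFL25, with all transgenic arrays below the nontransgenic Dex arrays, and it differed by -4.64 ± 0.63 (adjusted p = 0.00395) between RGA-GR Dex and nontransgenic Dex. AT4G18670 differed by -1.47 ± 0.28 (adjusted p = 0.00729) and AT1G49490 by -0.84 ± 0.19 (adjusted p = 0.0121). AT3G19020 and AT4G33970 differed by -2.41 and -3.10, given as a description. The call of AT4G18670 was lost on the arrays with spike-in signal (-0.75). AT1G49490 was not called without RGA-GR Dex replicate 2, alone or with its mock partner (-0.76 in both).

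In RGA-GR mock 3 extensin genes fell relative to nontransgenic Dex, where 6.19% of all probe sets were called lower, namely AT5G25550 (-3.01 ± 0.63, adjusted p = 0.0199), AT1G49490 (-0.98 ± 0.19, adjusted p = 0.0172) and AT4G18670 (-0.94 ± 0.28, adjusted p = 0.0489). These calls held in 19, 21 and 10 of 24 alternatives. AT5G25550 lost its call without RGA-GR mock replicate 2 (-2.68) or nontransgenic Dex replicate 1 (-2.91) or 2 (-2.96), AT1G49490 without RGA-GR mock replicate 2 (-0.85), and AT4G18670 without any 1 of the RGA-GR mock or nontransgenic Dex arrays (-1.04 to -0.86). With the replicate block within the transgenic line, calls among all 8 numbered 5 in RGA-GR Dex and 4 in RGA-GR mock, against 4 and 3 without it. The 8 include AT3G19020 and AT4G33970, whose lower values are built into their choice, and AT5G25550, for which this is so in part. The median over the 8 genes was -1.15 in RGA-GR Dex and -1.33 in RGA-GR mock, each against nontransgenic Dex. The choice of AT3G19020, AT4G33970 and AT5G25550 enters both medians. Between RGA-GR Dex and RGA-GR mock none of the 8 was called by limma, the median was -0.22, and AT5G25550 alone had an unadjusted p under 0.05 (-1.62 ± 0.63, adjusted p = 0.543).

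Of 11 genes listed for RALF processing and signalling downstream of the receptors, 2 had a probe set named for them and both passed the filter. S1P had ratios of 1.357, 1.264 and 1.361 in RGA-GR Dex, 0.880, 0.803 and 1.235 in RGA-GR mock, and 0.978, 1 and 0.838 in nontransgenic Dex. All RGA-GR Dex arrays were above all others, yet the differences of 0.47 ± 0.19 against RGA-GR mock (adjusted p = 0.543) and 0.50 ± 0.19 against nontransgenic Dex (adjusted p = 0.0688) did not pass. Against nontransgenic Dex S1P was called higher with the replicate block within the transgenic line and with the spike-in batch as a block. It was also called higher on the 6 arrays compared and without RGA-GR mock replicate 3. AT2G41970 was not called in any comparison.

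**Figure D4:**
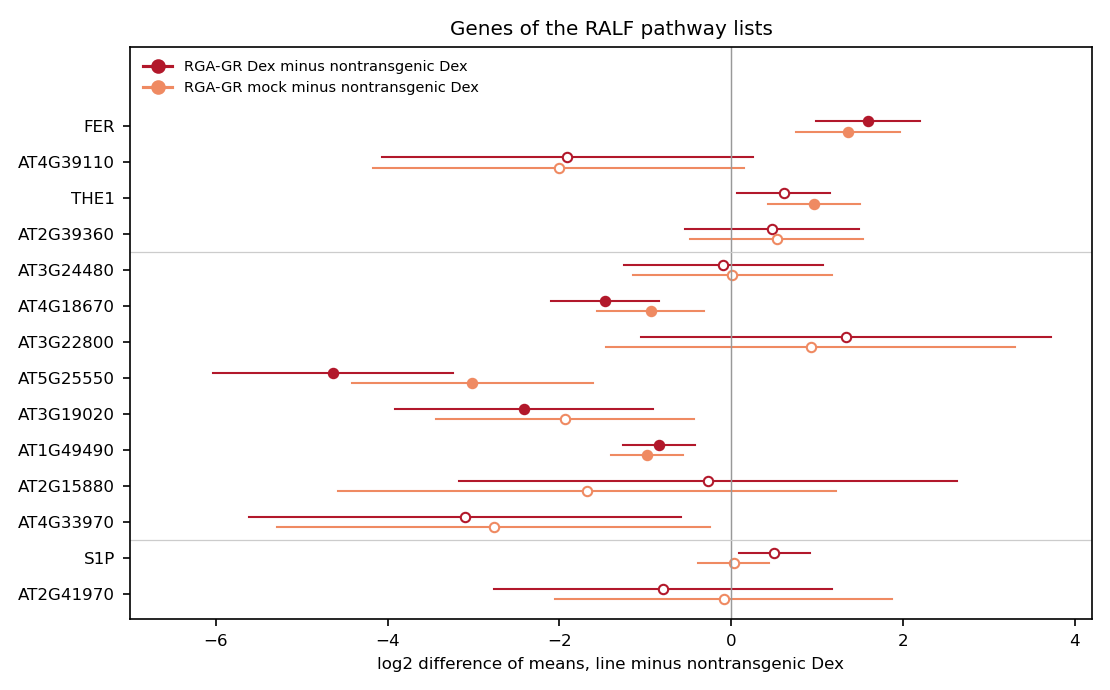
Log2 difference of means from nontransgenic Dex (x axis) for receptor kinases, leucine-rich repeat extensins and other RALF pathway genes (rows, parted by grey lines), for RGA-GR Dex (dark) and RGA-GR mock (light), with 95% confidence intervals; filled points passed an adjusted p of 0.05. FER lies at 1.59 and 1.36 and AT5G25550 at -4.64 and -3.01.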

How the data were processed

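Per the labels' protocols, an RNeasy kit was used for extraction, and Affymetrix arrays were hybridised with biotin-labelled RNA. The authors deposited linear ratios, and the submitters' processing notes name GCOS. The scaling and the handling of dim probe sets are not given in the sources used here. In 15112 of 22810 rows the median over arrays is exactly 1. The log2 of the deposited ratio was fitted in R 4.3.3 with limma 3.58.1 (lmFit and a trended eBayes; two-sided p adjusted by Benjamini-Hochberg across 17273 probe sets; threshold 0.05) in 1 model over 9 arrays, with 64 control probe sets left out. The design had allowed for signal, and ratios were found. The fit was tested on simulated data. Exact permutation tests were not used, since groups of 3 arrays are too small for them to reach the threshold.

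The members and lists were chosen with earlier results of these data known. Named were all RALFL probe sets, the 5 genes most like RALFL25, and from the pathway lists each gene called or up to 3 with the lowest adjusted p. Gene names come from a probe table and from a TAIR10.1 gene table. Deviations from group means correlated between Dex and mock arrays of the same number (r = 0.332, 0.118 and 0.325), so these were taken as pairs, from the data. Alternatives were an offset before the log2, quantile normalization, subtracted array medians, a filter at the 60th percentile or none, other eBayes settings, fewer arrays, replicate blocks, the spike-in batch, and each array or pair left out. Python 3.11.15 and matplotlib 3.10.9 drew the figures.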

Additional observations from a re-analysis of the deposited data

How the results depend on the processing

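Over 24 differences of the 8 RALFL members, 584 alternative values were computed: 556 kept direction and side of the threshold, 13 newly passed it, 0 lost a call and 15 changed sign. Between RGA-GR Dex and nontransgenic Dex, 2 members (RALFL25 and RALFL26) were called with a block for the spike-in batch. The same 2 were called with a replicate block over all 9 arrays or for the 6 transgenic arrays alone. With arrays left out 1 to 3 members were called, where 1134 to 4881 of all 17273 probe sets were. The block for the transgenic arrays called 6626 of 17273 probe sets in that comparison, a larger share than among the members. The block over all 9 arrays called 5131 of the 17273 and the block for the spike-in batch 3762. On the arrays with spike-in signal each transgenic group is 1 array, so no count of calls is given for them. Between RGA-GR mock and nontransgenic Dex, 1 member (RALFL25) was called with the block within the transgenic line and on the 6 arrays compared. Of all 17273 probe sets, 4927 and 2140 were called in these settings. With arrays left out 0 to 1 members were called, where 0 to 2773 of all probe sets were. The paired block changed no other member's call. Sign changes concerned small differences. RALFL31 between RGA-GR Dex and RGA-GR mock was 0.0071 on the arrays without spike-in signal and -0.33 to 0.12 with arrays left out, and RALFL34 was -0.18 to 0.0070. RALFL33 between RGA-GR Dex and nontransgenic Dex was -0.0026 after quantile normalization, -0.0856 with array medians subtracted and -0.0684 to 0.23 with arrays left out. Between RGA-GR mock and nontransgenic Dex, RALFL22 was -0.0851 with array medians subtracted, RALFL31 was 0.0280 on the arrays with spike-in signal, and RALFL32 was -0.37 to 0.0753 with arrays left out. The cause was not tested. For 10 pathway differences that passed, 197 of 240 values stayed called and none changed sign. Among the 10 are AT3G19020 in RGA-GR Dex and AT5G25550 in both transgenic groups, each against nontransgenic Dex. Their lower values there are built into their choice, for AT5G25550 in part, so their calls are a description. No RALFL name stands among probe sets with several genes, so that alternative was not run. Ratios hold no signal over background, so detection cannot be read from them, and the arrays without spike-in signal hold no nontransgenic sample.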
